A study of Homo sapiens with 6 samples.

Results

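The genes of DNA methylation examined here were the DNA methyltransferases DNMT1, DNMT3A and DNMT3B, the TET dioxygenases TET1, TET2 and TET3, and the isocitrate dehydrogenases IDH1 and IDH2. The 8 genes were taken by name, by a rule that used no measured value but was set with earlier results of these data known, from the 20007 protein-coding genes of GENCODE v44, and all 8 were found. H3K27ac peaks were collected for each gene in a promoter window, 2500 bases upstream and 2500 bases downstream of the canonical transcript's start. They were also collected in its locus, which was the annotated gene body plus 10 kb to each side. The readouts were the number of peaks, their width, and the number of bases under peaks in each library.

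DNA methylation is the addition of a methyl group to cytosine, in mammals mostly where a cytosine is followed by a guanine (a CpG). DNMT3A and DNMT3B set new methyl groups, DNMT1 copies them onto the new strand after replication, and the TET enzymes oxidise them, which begins their removal. The TET enzymes consume alpha-ketoglutarate, the product of IDH1 and IDH2, and DNMT3A, TET2, IDH1 and IDH2 are among the genes recurrently mutated in acute myeloid leukemia (AML).

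The libraries came from a study of ANP32B, a nuclear histone chaperone, in the human AML lines Kasumi-1, which carries a RUNX1::RUNX1T1 fusion, and MV4-11, which carries a KMT2A fusion. H3K27ac, an acetylation of the tail of histone H3 found at active promoters and enhancers, was mapped by CUT&Tag, in which an antibody guides a transposase to the marked chromatin. Each line had 1 control library (NC) and 1 ANP32B knockdown library (sh-ANP32B), so there were 4 peak lists, and 2 IgG samples, 1 per line, were not analysed here. The labels call the NC cells untreated, whereas the study describes lentiviral transduction of a control hairpin and selection with puromycin. Which of its ANP32B hairpins gave these libraries is not stated. Replicates were merged before peaks were called, so that there was 1 list per group, no spread between replicates and no test of any difference. All values below describe these 4 libraries only. The lists give positions and widths without heights or read totals, so the depth is unknown. In such lists, a mark present in fewer cells and a weaker mark in every cell cannot be told apart.

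On the main chromosomes the Kasumi-1 lists held 22768 peaks (NC) and 23878 peaks (sh-ANP32B), and the MV4-11 lists 24523 (NC) and 22136 (sh-ANP32B). The median peak was 1044, 980, 815 and 742 bases wide, respectively, and the smallest width ranged from 275 to 357 bases, so that a narrow site could be listed in one library and not in another. ANP32B itself, at chromosome 9, had 3447, 3432, 3433 and 2631 promoter bases under peaks, which is no check of the knockdown because a hairpin acts on the mRNA. Of 7 blood cell markers, 4 had a promoter peak in each NC library, and SPI1, a myeloid transcription factor, had one in all 4 libraries. MPO, which encodes a granule enzyme of myeloid cells, had none in any library. Of 7 genes listed here as markers of other cell types, without a check that they are absent from myeloid cells, PECAM1 had a promoter peak in all 4 libraries. CD3E, EPCAM, COL1A1 and ALB had none in any. No marker of either kind lost its promoter peak in Kasumi-1, and CEBPA, a myeloid transcription factor gene, was the 1 marker that had a promoter peak in MV4-11 NC and none in MV4-11 sh-ANP32B.

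The sequences of some sites described below are given first, from the hg38 genome and on the strand of the gene, 5′ to 3′, with each CpG in capitals. The first 2 are the 250 bases just before the canonical start. DNMT3A (chr2:25341926-25342175, minus strand) is shown because this start lay under a peak in Kasumi-1 NC and under none after knockdown. TET1 (chr10:68560087-68560336, plus strand) is shown because no library had a peak at its locus. The last is the middle 300 bases of a peak upstream of TET2 (chr4:105145447-105145746, plus strand) that was listed in MV4-11 sh-ANP32B and not in MV4-11 NC.
DNMT3A: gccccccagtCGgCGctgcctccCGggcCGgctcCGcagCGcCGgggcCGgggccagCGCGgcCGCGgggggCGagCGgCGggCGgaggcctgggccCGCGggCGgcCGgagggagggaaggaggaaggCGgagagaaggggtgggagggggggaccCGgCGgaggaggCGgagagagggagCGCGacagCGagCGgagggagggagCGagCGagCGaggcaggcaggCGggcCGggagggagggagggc
TET1: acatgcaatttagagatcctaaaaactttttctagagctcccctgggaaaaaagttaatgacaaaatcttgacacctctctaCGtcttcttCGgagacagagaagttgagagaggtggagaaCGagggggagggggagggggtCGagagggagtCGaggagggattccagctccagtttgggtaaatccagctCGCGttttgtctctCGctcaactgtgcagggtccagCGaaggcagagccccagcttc
TET2 upstream peak: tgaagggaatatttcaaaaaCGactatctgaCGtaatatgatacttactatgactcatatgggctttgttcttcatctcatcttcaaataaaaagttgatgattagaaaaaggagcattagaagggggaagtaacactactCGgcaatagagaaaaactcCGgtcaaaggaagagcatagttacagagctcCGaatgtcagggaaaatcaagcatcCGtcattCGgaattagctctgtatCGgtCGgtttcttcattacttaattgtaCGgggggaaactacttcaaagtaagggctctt
The DNMT3A stretch held 33 CpGs at a GC content of 82.4%. The TET1 stretch held 9 CpGs at 51.6%, and the TET2 upstream peak 10 CpGs in its 300 bases at 39%. The DNMT3A site shown, lost in Kasumi-1, thus had more CpGs and a higher GC content than the TET2 site shown, gained in MV4-11. The 2 sites also differ in line and in distance from the start, so they do not describe lost and gained sites in general.

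The promoter peaks of DNMT3A and DNMT3B, the de novo methyltransferases, were listed in Kasumi-1 NC and absent from Kasumi-1 sh-ANP32B. In MV4-11, DNMT3A had no promoter peak in either library, and a narrow DNMT3B peak was listed in NC alone. Promoter peaks were present at 7 of the 8 genes in Kasumi-1 NC, at 5 in Kasumi-1 sh-ANP32B, at 6 in MV4-11 NC and at 5 in MV4-11 sh-ANP32B. Among all protein-coding genes the shares were 47.7%, 45.3%, 35.8% and 28.6%. The genes missing after knockdown were DNMT3A and DNMT3B in Kasumi-1 and DNMT3B in MV4-11, and TET1 had no peak in any library. Kasumi-1 thus lost the promoter peak at 2 of 7 genes, where 6.79% of all genes with an NC peak lost theirs. In MV4-11 it was 1 of 6, where 24.4% of all genes did. A locus peak was present at 7, 6, 7 and 6 genes, and DNMT3B was the gene that dropped out in each line.

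**Figure D1:**
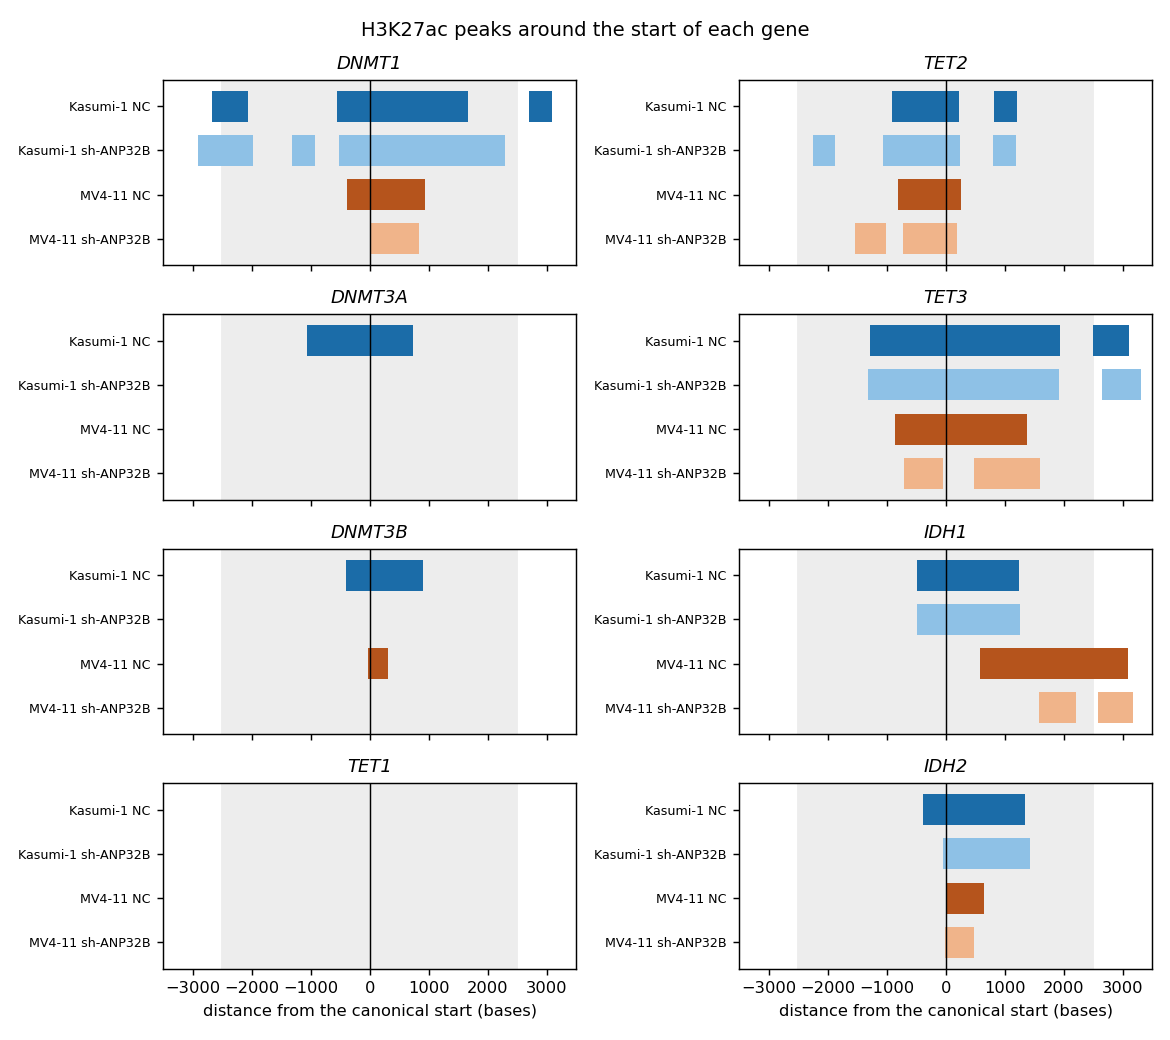
Position of every H3K27ac peak near the start of each gene. The x axis gives the distance from the canonical start in bases, each row of bars is 1 library, each bar is 1 peak, and the grey area is the promoter window. DNMT3A has a bar in Kasumi-1 NC alone, DNMT3B has bars in the 2 NC libraries alone, and TET1 has none.

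In Kasumi-1, the 7 genes with a promoter peak in either library divided into 3 with fewer bases under peaks in sh-ANP32B and 4 with more. Among the 9705 genes with a promoter peak in either Kasumi-1 library, 49.9% had fewer. A difference of at least 1.5-fold towards fewer bases was found at 2 genes, DNMT3A and DNMT3B, against 14.6% of all genes. A difference of at least 1.5-fold towards more was found at 0 genes, against 4.86%. Summed over the 8 genes, the promoter bases were 14011 in NC and 12264 in sh-ANP32B, a ratio of 0.875, and the ratio over all genes was 0.96. DNMT3A and DNMT3B carried this difference, since without them, a choice made after their values were seen, the sum was 10917 in NC and 12264 in sh-ANP32B, a ratio of 1.12.

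In MV4-11, 5 of 6 genes had fewer promoter bases in sh-ANP32B and 1, TET2, had more. Fewer bases were also found at 78.1% of the 7469 genes with a promoter peak in either MV4-11 library, so the direction of the 5 genes was that of most promoters in this line. DNMT1, DNMT3B and IDH1 had at least 1.5-fold fewer, 3 of 6 against 45% of all genes, and 0 had at least 1.5-fold more, against 7.28%. The sum went from 7537 to 5149 bases, a ratio of 0.683, and over all genes the ratio was 0.721.

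**Figure D2:**
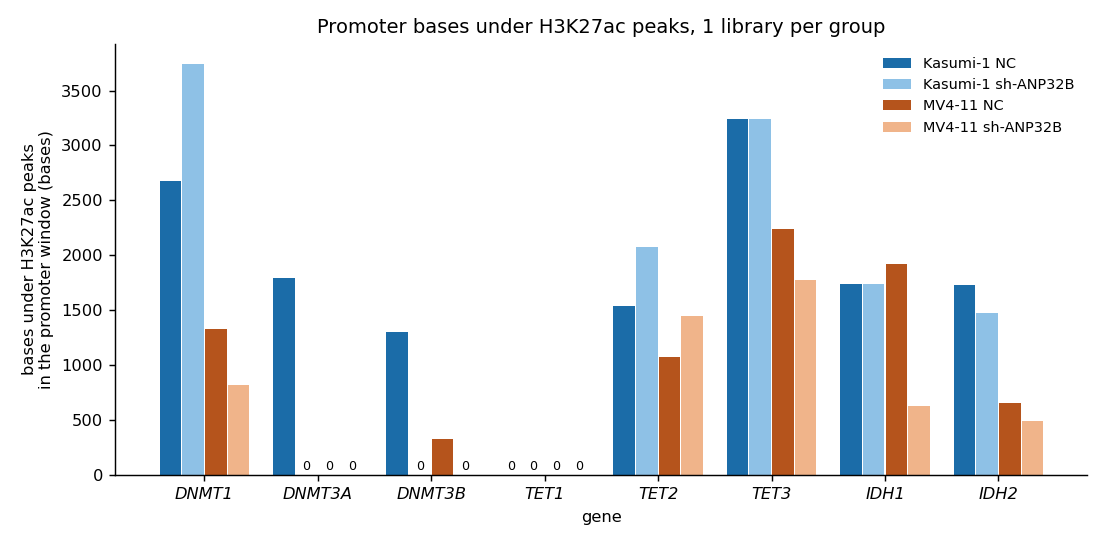
Promoter bases under H3K27ac peaks for the 8 genes. The y axis gives bases under peaks in the promoter window, and the 4 bars of each gene are the 4 libraries, 1 per group, with 0 written where no peak was present. TET3 and DNMT1 have the tallest bars in both Kasumi-1 libraries, and TET2 is the gene whose sh-ANP32B bar is the taller one in both lines.

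The 2 NC libraries were compared to describe the lines without knockdown. MV4-11 NC had fewer promoter bases than Kasumi-1 NC at 6 of 7 genes, as did 83.9% of all genes, and at 4 of them, DNMT1, DNMT3A, DNMT3B and IDH2, at least 1.5-fold fewer, against 61.9%. At 0 genes were there at least 1.5-fold more, against 5.84%, and IDH1 was the gene with more bases in MV4-11. Locus bases were fewer in MV4-11 NC at 4 of 7 genes, against 72.9%. The line and the narrower peaks of the MV4-11 list cannot be told apart in these differences.

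DNMT3A (chromosome 2, positions 25227855 to 25342590 of hg38, minus strand), a de novo methyltransferase, had 1796 promoter bases in Kasumi-1 NC and 0 in the other 3 libraries. The Kasumi-1 NC peak was 1796 bases wide and ran from −1062 to 733, counted in bases from the canonical start along the gene with minus for upstream. It covered the canonical start and the upstream coding start, at −665, and the stretch printed above. Its width was at percentile 75.3 of that library's list, so it was not a marginal site by width. In Kasumi-1 sh-ANP32B the nearest peak lay 20728 bases from the start, on the upstream side. Only 0.155% of the genes tested in Kasumi-1 had a difference as low as or lower than that of DNMT3A, −1796 bases.

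The rest of the DNMT3A locus held its peaks. Outside the promoter window, peaks covered 10962 bases in the Kasumi-1 control and 11154 with knockdown. In MV4-11 they covered 5742 bases in the control and 4923 with knockdown. All 8 other Kasumi-1 NC peaks and all 5 MV4-11 NC peaks overlapped a knockdown peak of the same line. The MV4-11 peaks fell at 5 intronic sites that all 4 libraries shared, 1 in intron 1, 3 in intron 2 and 1 in intron 4 of the canonical transcript. The widest, in intron 1 and beginning at 25105 in Kasumi-1 NC, was 3199, 2910, 3041 and 2402 bases wide in Kasumi-1 NC, Kasumi-1 sh-ANP32B, MV4-11 NC and MV4-11 sh-ANP32B. A further 3 sites, 2 in intron 3 and 1 in intron 6, had peaks in both Kasumi-1 libraries and in neither MV4-11 library. The internal start used by short transcripts, at 89614, had no peak within 2500 bases in any library. Of the 9 peaks of the DNMT3A locus in Kasumi-1 NC, the one at the start was thus the one that was lost.

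DNMT3B (chromosome 20, positions 32762385 to 32809359, plus strand), the other de novo methyltransferase, had 1298 promoter bases in the Kasumi-1 control and 0 with knockdown, and 326 in the MV4-11 control and 0 with knockdown. Each NC library had a single peak in the whole locus, which spanned −400 to 897 for Kasumi-1 and −21 to 304 for MV4-11, and both lay over the canonical start. After knockdown the nearest peak was 17761 bases from the start for Kasumi-1 and 30763 bases from it for MV4-11, and the coding starts nearest to those peaks were of other genes. DNMT3B was the 1 gene of 6 with a promoter peak in both NC libraries and in neither knockdown library, a pattern of 1.08% of the genes with a peak in both NC libraries (74 of 6876). The Kasumi-1 difference, −1298 bases, had 0.958% of genes at or below it. The MV4-11 difference, −326 bases, had 49.6% of genes at or below it. The MV4-11 NC peak was among the narrowest of its list, at percentile 4.91 by width, and it was not kept when all lists had the same minimum width of 357 bases or when the 20000 widest peaks of each list were used.

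Restricting the comparison to wide sites, the widest promoter peak of each of the 7 genes in Kasumi-1 NC was at least 1000 bases wide, and 2 of the 7 genes had no promoter peak in sh-ANP32B. Over all 7007 genes with so wide a promoter peak in Kasumi-1 NC, 1.57% had none. This cut-off on complete loss was not among the planned comparisons. All 7 genes passed it, so it lowered the share over all genes, from 6.79%, and left theirs as it was. Base composition was set beside these values. The lost DNMT3A bases had a GC content of 77.8% and the lost DNMT3B bases 71.3% in Kasumi-1 and 79.4% in MV4-11. Over all promoter windows of Kasumi-1, lost bases had 66.8%, bases under peaks in both libraries 60.9% and gained bases 51.7%. In MV4-11 the values were 60.1%, 60.8% and 56.9%. With genes split into 5 equal classes by GC content around the start, 10.3% of Kasumi-1 NC promoter peaks were lost in the richest class, which began at 72.7%, and 4.01% to 6.77% in the other classes. DNMT3A, DNMT3B, TET3 and IDH2 were in the richest class, and TET3 and IDH2 kept their promoter peak in Kasumi-1. In MV4-11 the share lost was 26.9% in the richest class and 14.9% to 25.5% in the others. The part of base composition in the loss at DNMT3A and DNMT3B was not tested.

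DNMT1 (chromosome 19, positions 10133342 to 10231286, minus strand), the maintenance methyltransferase, had 2676 promoter bases in control Kasumi-1 cells and 3737 in knockdown Kasumi-1 cells. In MV4-11 the control had 1328 and the knockdown 815. The direction thus differed between the lines, with 1061 more bases after knockdown in Kasumi-1, where 99.6% of genes were at or below that difference, and −513 in MV4-11. The ratios were 1.4 in Kasumi-1, which is within 1.5-fold, and 0.614 in MV4-11. With peaks of at least 1000 bases the Kasumi-1 difference was 579, and with the 20000 widest peaks of each list it was 669. Over the start, the Kasumi-1 peak spanned −561 to 1673 in the control and −514 to 2299 with knockdown, and a peak of 392 bases from −1317 to −926 was listed in sh-ANP32B alone. Within 1000 bases of the start the Kasumi-1 difference was 28 bases, so the added bases lay farther out. In MV4-11 it spanned −388 to 939 in the control and 14 to 828 with knockdown, and in the latter the start itself was not covered.

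Across the DNMT1 locus, 9 peaks and 7160 bases were listed in Kasumi-1 NC and 8 peaks and 8931 bases in Kasumi-1 sh-ANP32B. MV4-11 had 2 peaks in each library, with 2025 bases in NC and 1958 in sh-ANP32B. Of the Kasumi-1 NC peaks, 7 were kept and 2 lost, 397 and 386 bases wide. The upstream site that began at −25859 in NC was 744 bases wide there and 1798 in sh-ANP32B. The 2 most upstream peaks of each Kasumi-1 library, 568 and 965 bases wide in NC and 402 and 910 in sh-ANP32B, lie within 2500 bases of the start of S1PR2, a sphingosine phosphate receptor gene inside the annotated DNMT1 locus, and cannot be assigned to one of the genes.

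TET1 (chromosome 10, positions 68560337 to 68694487, plus strand), a TET dioxygenase with 1 annotated coding start, had 0 promoter bases and 0 locus bases in every library. The peak nearest to its start lay 32136 bases off in the Kasumi-1 control and 32088 with knockdown, and in MV4-11 67701 and 68087 bases off. Absence of a promoter peak in all 4 libraries was shared by 50.1% of protein-coding genes and absence of a locus peak by 33.6%. The lists cannot show whether a weaker mark was present.

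TET2 (chromosome 4, positions 105145875 to 105279816, plus strand), a TET dioxygenase often mutated in myeloid disease, had 1536 promoter bases in the Kasumi-1 control, 2072 in the Kasumi-1 knockdown, 1075 in the MV4-11 control and 1447 in the MV4-11 knockdown. It was the 1 gene of the 8 with more promoter bases after knockdown in both lines, by 536 in Kasumi-1 and by 372 in MV4-11, a ratio of 1.35 in each. In Kasumi-1, 95.4% of genes were at or below the difference, and in MV4-11 94.1% were. Most of the added Kasumi-1 bases were those of a peak of 380 bases at −2259 to −1880 that was listed in the knockdown library alone, and with peaks of at least 1000 bases the difference was 156. In MV4-11 the knockdown library alone had a peak of 515 bases at −1536 to −1022. The MV4-11 peak is the one printed above. These upstream sites did not coincide, and the direction in MV4-11 turned where its site was left out. With a window of 1000 bases the MV4-11 difference was −143, and with peaks of at least 1000 bases it was −1075.

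The peak over the TET2 start was present in all 4 libraries, 1145, 1301, 1075 and 932 bases wide in the order given. A second peak in intron 1, 391 bases wide in both Kasumi-1 libraries, was not listed in MV4-11. No other TET2 peak was listed in the gene body or within 10 kb of it, so all peaks listed in this locus lay in the promoter window. The gained promoter bases of TET2 had a GC content of 49.8% in Kasumi-1 and 40% in MV4-11, and the kept bases 62.6% and 68.3%. With a single minimum width and gap of 357 bases for all lists, the TET2 promoter difference was 536 in Kasumi-1 and 658 in MV4-11. Under that setting MV4-11 had 0 gained peaks over all member loci, in place of 2, so its upstream TET2 peak was no longer a separate gain. The part of base composition in these gains was not tested.

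TET3 (chromosome 2, positions 73984910 to 74108176, plus strand), the third TET dioxygenase, had the most promoter bases of the 8 genes in 3 of the 4 libraries. Kasumi-1 had 3237 in the control and 3240 with knockdown, and MV4-11 had 2236 and 1771. In Kasumi-1 the promoter peak kept its edges within 27 bases, at −1290 and 1938 in the control and −1317 and 1922 with knockdown. In MV4-11 the NC peak ran from −856 to 1379, and sh-ANP32B had 2 peaks in its place, from −703 to −47 and from 476 to 1589, with the start between them. The MV4-11 promoter bases lost had a GC content of 78.8% and the kept ones 70.1%. A long noncoding RNA, ENSG00000235499, starts at 222 and shares this window.

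Inside the TET3 gene the difference was larger. The locus had 6999 bases under peaks in control and 7726 in knockdown Kasumi-1 cells, and 7587 in control and 4475 in knockdown MV4-11 cells. The MV4-11 difference, −3112, had 2.5% of genes at or below it. The site in intron 4 was 390 bases wide in control and 538 in knockdown Kasumi-1 cells, and 3157 in control and 1167 in knockdown MV4-11 cells. The site that began at 95024 in Kasumi-1 NC was 1170, 1461, 1766 and 1121 bases wide in the same order. No TET3 peak of either NC library was lost, so the MV4-11 difference was one of width. Intron 3 differed between the lines, with 3 sites in both Kasumi-1 libraries and 1 other site in both MV4-11 libraries.

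**Figure D3:**
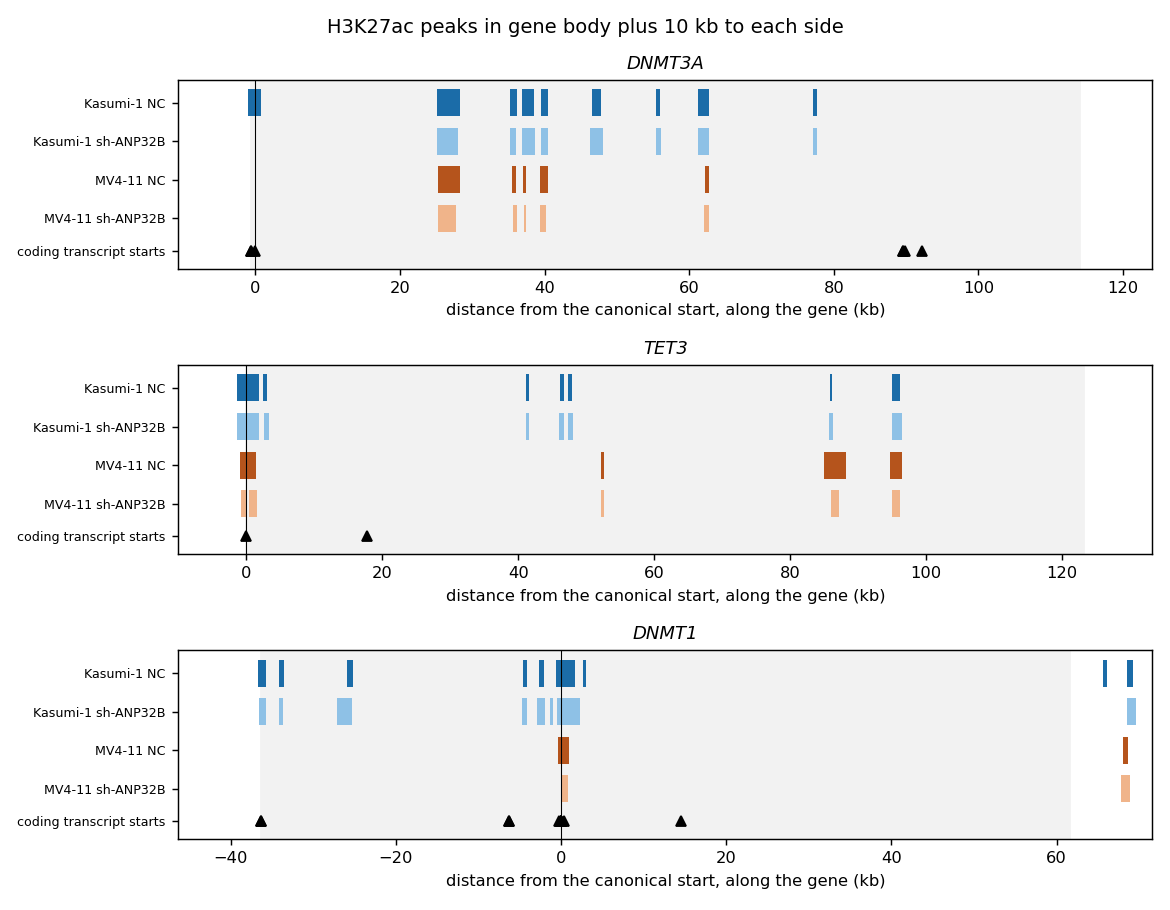
H3K27ac peaks across the loci of DNMT3A, TET3 and DNMT1. The x axis gives the distance from the canonical start in kb along the gene, rows are the 4 libraries, the shaded area is the gene body, and triangles mark the starts of coding transcripts. Of the intronic DNMT3A sites 5 recur in all rows and 3 in the Kasumi-1 rows alone, while the bar at its start is in Kasumi-1 NC alone, and the wide intron 4 bar of TET3 in MV4-11 NC (3157 bases) is 1167 bases in MV4-11 sh-ANP32B.

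IDH1 (chromosome 2, positions 208236229 to 208266074, minus strand), the cytosolic and peroxisomal isocitrate dehydrogenase, had 1737 promoter bases in control and 1742 in knockdown cells of Kasumi-1, and 1921 in control and 628 in knockdown cells of MV4-11. In Kasumi-1 the peak over the start was the same within 10 bases at each edge, with edges at −496 and 1240 in the control and −491 and 1250 with knockdown. In MV4-11 NC the peak began downstream of the start, from 580 to 3078, and covered 3 internal coding starts. In MV4-11 sh-ANP32B 2 peaks overlapped it, from 1578 to 2205 and from 2572 to 3170. The MV4-11 difference, −1293 bases or a ratio of 0.327, had 3.61% of genes at or below it. The lost bases had a GC content of 45.6% and the kept ones 37.6%.

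The IDH1 locus had 2607, 2648, 3668 and 1677 bases under peaks in Kasumi-1 NC, Kasumi-1 sh-ANP32B, MV4-11 NC and MV4-11 sh-ANP32B. A peak whose upstream edge was at −11702 in Kasumi-1 NC lies within 2500 bases of the start of PIKFYVE, a lipid kinase gene, and of a longer IDH1 transcript. It was 870, 906 and 583 bases wide in the first 3 libraries and was lost in MV4-11 sh-ANP32B. A peak in intron 3 was listed in MV4-11 alone, 586 bases wide in NC and 450 in sh-ANP32B. The antisense gene IDH1-AS1 starts at −143, and peaks at this promoter cannot be assigned to one of the genes.

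IDH2 (chromosome 15, positions 90083045 to 90102477, minus strand), the mitochondrial isocitrate dehydrogenase, had 1731 promoter bases in the control and 1473 in the knockdown library of Kasumi-1. In MV4-11 the values were 651 and 488. The upstream edge of the Kasumi-1 peak moved from −387 to −50, towards the start, while the downstream edge went from 1343 to 1422. With a window of 5000 bases, or with every annotated start, the Kasumi-1 difference was 107 in place of −258. The MV4-11 peak spanned −5 to 645 in the control and −10 to 477 with knockdown. The divergent transcript IDH2-DT starts at −181.

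The directions at the IDH2 locus were opposite in the lines, but with flanks of 50 kb both were negative, −430 in Kasumi-1 and −2100 in MV4-11. Kasumi-1 had 2441 locus bases in the control and 1838 with knockdown, where a peak of 710 bases near the 3′ end was lost. MV4-11 had 2524 in the control and 3027 with knockdown, where the peak at that same end was 583 bases wide in NC and 1422 in sh-ANP32B. A site in intron 3 was listed in MV4-11 alone and was 1290 bases wide in NC and 763 in sh-ANP32B. Single narrow peaks were gained, 365 bases wide in Kasumi-1 and 354 in MV4-11, at different places.

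Taking the 8 loci together, Kasumi-1 lost 5 of 32 NC peaks (15.6%), where the line lost 9% of its NC peaks in all. Of 30 Kasumi-1 sh-ANP32B peaks, 3 were gained (10%), against 13.2% of all. In MV4-11, 2 of 19 NC peaks were lost (10.5%), against 29.1% of all, and among 21 sh-ANP32B peaks 2 were gains (9.52%), against 17.7%. The lost MV4-11 peaks were the one over the DNMT3B start and the one beside the PIKFYVE start. By bases, the loci of 3 of 7 genes had fewer in Kasumi-1 sh-ANP32B than in NC, against 46% of all genes, and the loci of 5 of 7 had fewer in MV4-11, against 75.3%. Summed over the 8 loci, control and knockdown had 34799 and 34369 bases for Kasumi-1, and 22947 and 17507 for MV4-11. These were ratios of 0.988 and 0.763, and over all genes the locus ratios were 1.01 and 0.794.

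The shape of the promoter peaks also differed between libraries. The canonical start lay under the peak at 7 of 7 genes with a promoter peak in Kasumi-1 NC, against 86.7% of all such genes, and at 5 of 5 in Kasumi-1 sh-ANP32B, against 77.8%. In MV4-11 it did so at 5 of 6 genes in NC, against 66.5%, and at 2 of 5 in sh-ANP32B, TET2 and IDH2, against 57.5%. A kept NC promoter peak overlapped more than 1 knockdown peak at 0 of 5 genes in Kasumi-1, against 5.1%, and at 2 of 5 in MV4-11, TET3 and IDH1, against 8.53%. With so few genes these shares are descriptions of the genes named.

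**Figure D4:**
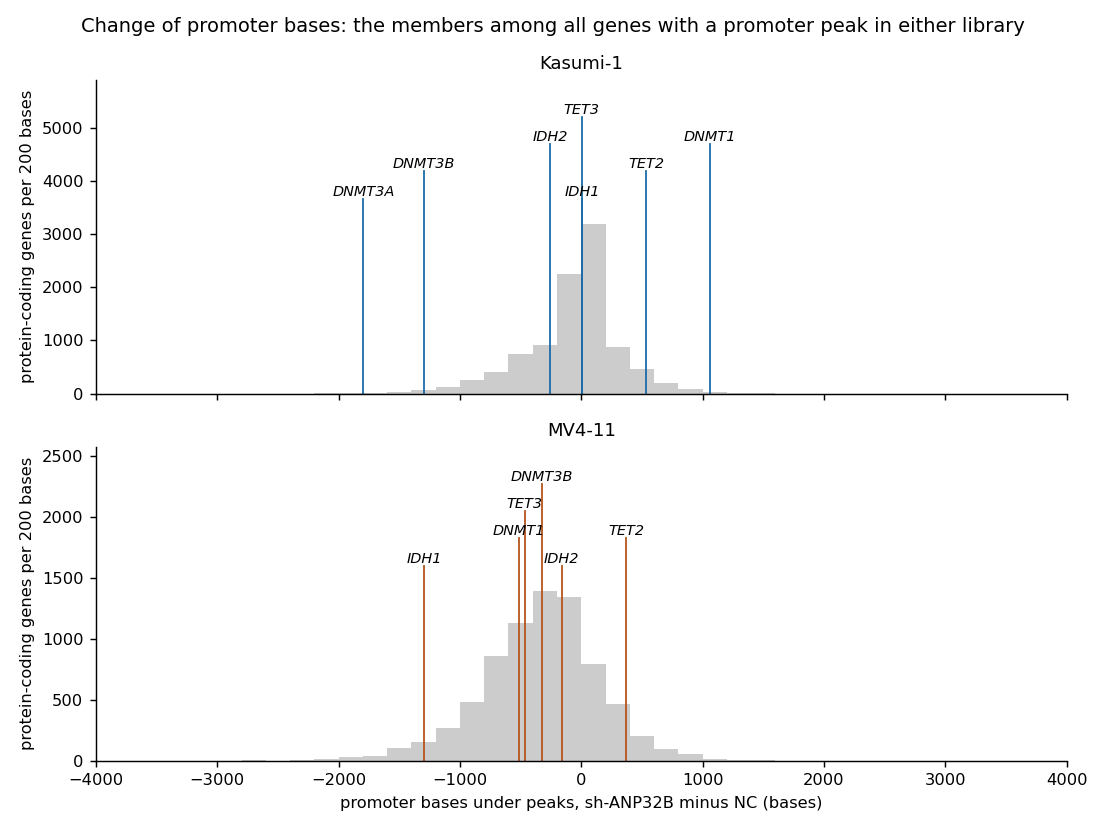
Difference in promoter bases, sh-ANP32B minus NC, for all protein-coding genes with a promoter peak in either library of a line. The x axis gives the difference in bases, the y axis the number of genes per 200 bases, and the lines mark the members with a promoter peak. DNMT3A and DNMT3B are in the far left tail of Kasumi-1 and DNMT1 in the right tail, and in MV4-11 IDH1 is in the left tail and TET2 to the right of most genes.

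The sequence around the starts was described for all 8 genes in the 300 bases from 250 before to 50 after the start. CpG counts were 46 for DNMT3A, 45 for TET3, 38 for IDH2, 35 for TET2, 30 for DNMT1 and DNMT3B, 20 for IDH1 and 10 for TET1. The median was 23 over all protein-coding genes, 28 over genes with a promoter peak in all 4 libraries and 13 over genes with none. In these 300 bases TET1 thus had fewer CpGs than the median gene without a promoter peak. Over the whole promoter window the order was the reverse, with 187 CpGs at TET1. There the median was 112 over genes without a promoter peak and 173 over genes with one in all 4 libraries. The GC box GGGCGG was found on either strand in 6 of the 8, all but DNMT1 and TET1, and in 61.3% of all promoters of this length. DNMT3B had 7 matches and TET2 had 5, the most among the 8 genes. The E-box CACGTG was found in TET3 (8.76% of all promoters), the RUNX motif TGTGGT in IDH1 (10.7%), the CRE motif TGACGT in TET2 (9.5%) and the NF-Y motif CCAAT in IDH1 and IDH2 (36.1%). The ETS motif CCGGAA (22.8%) and the AP-1 motif TGACTCA (3.57%) were found in 0 of the 8. A match describes letters and not a bound site.

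Other genes of the pathway were taken from a list of 25 that recruit, read, repair or feed DNA methylation. In Kasumi-1, 19 had a promoter peak in NC and 17 in sh-ANP32B, where 47.7% and 45.3% of all genes did. Bases were fewer after knockdown at 8, more at 10 and equal at 1. Of all genes with a peak in either Kasumi-1 library, 49.9% had fewer. The 2 list genes that lost their peak, where 6.79% of all genes did, included IDH3A, a subunit of the NAD-dependent isocitrate dehydrogenase (566 bases in NC). In MV4-11, 15 list genes had a promoter peak in NC and 12 in sh-ANP32B, where 35.8% and 28.6% of all genes did. Bases were fewer at 12 and more at 4 of the 16 with a peak in either. The median difference over the list was 22 bases in Kasumi-1 and −508 in MV4-11, and over all genes it was 0 and −323.

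Of the 15 list genes with a promoter peak in MV4-11 NC, 4 lost their promoter peak, where 24.4% of all genes did, and fewer bases at 12 of 16 stood beside 78.1% of all genes, so neither count set the list apart. The 4 included those of HELLS, a chromatin remodeller needed for DNA methylation (1413 bases in NC), IDH3G, another subunit of the NAD-dependent enzyme (1552), and D2HGDH, a hydroxyglutarate dehydrogenase (728). In Kasumi-1 sh-ANP32B these 3 genes kept a promoter peak, with 1489 bases at HELLS, 2786 at IDH3G and 1923 at D2HGDH. ZBTB33, a zinc finger reader of methylated DNA, had 1276 and 1098 bases in Kasumi-1 and 0 and 522 in MV4-11, the 1 gain of the list. DNMT3L, MBD2, ZBTB38, SMUG1, CXXC4 and WT1 had no promoter peak in any library. DNMT3L is a catalytically inactive partner of DNMT3A and DNMT3B.

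For each member with a promoter peak, the protein-coding gene with the most similar promoter bases over the 4 libraries was found by the sum of absolute differences. TMEM256 was nearest to DNMT3A, 32 bases apart in all, with 1764, 0, 0 and 0 bases. USP10, a deubiquitinase gene, was nearest to DNMT3B, 125 apart, with 1177, 0, 330 and 0. The others were NSUN4 for DNMT1 (625), ZSCAN5A for TET2 (182), BIN2 for TET3 (109), BMP2K for IDH1 (263) and UBE2C for IDH2 (131). With 4 libraries, such a likeness describes the lists and no more.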

How the data were processed

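H3K27ac CUT&Tag was carried out in 4 samples and IgG in 2. Per the study's methods, the authors aligned reads to hg38 with Bowtie2 v2.2.5, removed duplicates with Picard, merged replicates with samtools v1.15.1 and called peaks (MACS2 v2.2.7, q-value 0.01). The submitters' processing notes list Bowtie2 2.4.4 and MACS3 3.0 instead, and whether the IgG reads served as control is not stated. The deposited lists give start, end and length of each peak. All 195 sequence names were found in hg38, with 0 peaks past an end.

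Bases under peaks were counted with Python 3.11.15 and numpy 2.4.6, and the counting was tested on simulated peaks. A peak that shared 1 base or more with the line's other list was kept, and otherwise lost or gained. A gene counted as having fewer or more bases where the counts differed. Sequences were read from hg38. RefSeq held the same start for 6 of the 8 genes. The members and lists were chosen with earlier results of these data known. Genes named beside the members were list genes that lost or gained a promoter peak or had none, genes sharing a window, and the nearest gene by promoter bases. Alternatives were other windows and flanks, every annotated start, wide peaks, a larger overlap, and a single minimum width and gap of 357 bases for all lists. Some genes of the lists and 1 sequence are not reported here. Columns not assigned to a sample numbered 0.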

Additional observations from a re-analysis of the deposited data

Results flagged for a closer look

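Several genes had differences of opposite sign in the lines, sh-ANP32B minus NC. Each line had 1 library per group, so whether the lines differ was not tested. Promoter bases of DNMT1 differed by 1061 in Kasumi-1 and by −513 in MV4-11. At TET3 the promoter values were 3 and −465, and at IDH1 they were 5 and −1293, so that the Kasumi-1 side of both was close to 0 (0 and −5 in a window of 1000 bases). Locus bases of DNMT1 differed by 1771 in Kasumi-1 and by −67 in MV4-11. The locus values were 727 and −3112 at TET3 and 41 and −1991 at IDH1. IDH2 was the gene with the reverse order, −603 in Kasumi-1 and 503 in MV4-11. With flanks of 50 kb the signs were no longer opposite at 3 of these loci, with 1549 and 436 at DNMT1, −415 and −4490 at TET3, and −430 and −2100 at IDH2.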

How the results depend on the processing

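No paired analysis was possible because each group had 1 library, and for the same reason no library could be left out. The cause of each shift was not tested. Of 148 member differences recomputed under an alternative, 137 did not turn and 11 did. With 50 kb flanks the locus differences became 436 for DNMT1 and −2100 for IDH2 in MV4-11, and 480 for DNMT3B and −415 for TET3 in Kasumi-1. TET2 in MV4-11 became −143 in the 1000-base window and in the gene body without flank, and −1075 with peaks of at least 1000 bases, for both promoter and locus. In Kasumi-1, IDH1 became −5 in the 1000-base window, and IDH2 107 in the 5000-base window and with every start.

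The ratio of summed promoter bases in Kasumi-1 was 0.699 and 0.912 with windows of 1000 and 5000 bases, 0.92 with every start, 0.803 with peaks of at least 1000 bases and 0.815 with the 20000 widest peaks. In MV4-11 these were 0.604, 0.712, 0.661, 0.17 and 0.714, and 0.754 with the common minimum width and gap. With peaks of at least 1000 bases, 1 member had a promoter peak in MV4-11 sh-ANP32B, Kasumi-1 had 2 lost and 0 gained member peaks, MV4-11 had 0 lost and 0 gained, and 6 pathway genes had fewer bases in MV4-11. The 1000-base window left 5 such pathway genes in Kasumi-1. These pathway alternatives were added after the data were seen. With the common width and gap, 1 member had at least 1.5-fold more promoter bases in MV4-11, with 1 peak lost and 0 gained. An overlap of 50% gave 4 lost in MV4-11. DNMT3B in MV4-11 had a difference of 0 with the wide peaks, the widest 20000 and the common width. Without heights or read totals, weak marks cannot be told from absent ones.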
